A study of Mus musculus with 8 samples.

Results

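The genes examined here are 45 genes of DNA replication and nucleotide supply, a list given by name that covers the helicase, the origin recognition complex, the loading and activation factors, the polymerases, the clamp and its loader, the single-strand binding protein, the enzymes that join Okazaki fragments and the enzymes that make deoxynucleotides. All 45 were found among the 27179 entries of the expression table, and 36 of them had a peak in at least 1 of the 4 peak lists. The cells were C2C12, an established mouse myoblast line that divides in serum-rich medium and fuses into myotubes when serum is withdrawn. All dishes were coated with rat tail type 1 collagen and all media were based on high glucose DMEM. GM cells were collected while dividing, at about 50% confluence in 10% fetal bovine serum, and 3d DM cells were collected 3 days after cells at over 90% confluence had been moved to 2% horse serum. Each state had 2 input libraries of poly(A) RNA and 2 libraries immunoprecipitated with an antibody to N6-methyladenosine (m6A), a methyl mark on adenosines of mRNA. Nothing in the labels says that the 2 replicates came from separate cultures, so the spread between these samples, on which the p-values rest, may be technical. In the main fit of the RNA that spread was taken over genes of a similar level and hardly from a gene's own replicates.

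Before S phase, the origin recognition complex marks sites on the chromatin, and CDC6 and CDT1 load the ring of MCM2 to MCM7 there as an inactive double helicase. CDC45, the GINS complex and MCM10 then turn the ring into a moving helicase, after which the polymerases, the PCNA clamp and its RFC loader copy both strands. Many of these genes are transcribed late in G1 under the control of E2F factors, and myoblasts leave the cell cycle before they fuse, so these genes are commonly used to read whether a culture is dividing. Values of the expression table are given here as normalized signal, and changes as log2 fold changes, which are the GM mean minus the 3d DM mean of log2(signal + 1) with the standard error of the limma fit. A gene was called at an adjusted p under 0.05, with Benjamini-Hochberg adjustment over all 11406 genes tested.

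The state of the cultures was read first from markers. Mki67, a protein of dividing cells, measured 3586 and 3659 in GM against 446 and 760.4 in 3d DM. Myog, a transcription factor of muscle differentiation, measured 1008 and 221 in GM against 5392 and 11502 in 3d DM, and Ckm, the muscle creatine kinase, measured 109.9 and 17.1 in GM against 1740.3 and 1996 in 3d DM. Myh3, the embryonic myosin heavy chain, measured 1068 and 273 in GM against 33485 and 51674 in 3d DM. Mki67 was called higher in GM (2.63 ± 0.42, adjusted p = 1.42e-08) and all 6 differentiation markers were called lower in GM, led by Myh3 (-6.26 ± 0.41, adjusted p = 5.63e-50). Of 4 myoblast lineage markers, Myf5 was called higher (2.14 ± 0.48, adjusted p = 0.000118) and Des lower (-1.36 ± 0.40, adjusted p = 0.0061), and of 10 markers of other lineages only the tubulin gene Tubb3 passed the filter on low values. The 7 markers of state together summed to between 4822 and 8700 in the GM libraries and between 95888 and 133529 in the 3d DM libraries. GM replicate 1 held more of Myog, Ckm and Myh3 than GM replicate 2. The replication genes were lower in GM replicate 1 than in GM replicate 2 in 38 of 45 cases, with a median difference of -0.31 on the log2 scale, while the median over all tested genes was 0.21. After median-of-ratios rescaling of the libraries they were lower in 42 of 45 cases. Before rescaling, the 3d DM pair ran otherwise, since 3d DM replicate 2 held more of Myog, Ckm and Myh3 than replicate 1. Of the other differentiation markers, Acta1 and Mymk were also higher in replicate 2, but Tnnt3 was lower (12977 against 13508). The median-of-ratios factors of replicates 1 and 2 were -0.37 and 0.13 on the log2 scale, and the markers are given without them. Before rescaling, 3d DM replicate 2 also held more of the replication RNAs in 44 of 45 cases, with a median difference of 0.65 against 0.51 over all tested genes. After rescaling it held more in 32 of 45 cases, with a median difference of 0.15. The part of differentiated cells in these gaps was not tested.

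RNA of the replication genes was far more abundant in GM. Of the 45 genes, 41 were called higher in GM and 0 lower, where 9.96% of all tested genes were called higher and 7.01% lower. No gene of the 45 had a log2 fold change below 0 in this fit. The median log2 fold change of the 45 was 2.07, against 0.22 over all tested genes, and 42 of the 45 were above 1. Both GM values lay above both 3d DM values for 44 of the 45 genes, with Orc3 the exception, while 37.0% of all tested genes had this order. The same 37.0% stands beside each statement below that the input values of a gene did not overlap between the states. Ratios of the GM mean to the 3d DM mean ran from 1.09 for Orc3 to 11.99 for Mcm10, with a median of 4.22. Orc1 and Gins1 passed the filter on low values through their GM libraries alone. The samples hold many cells each, so fewer dividing cells and less of these RNAs in each cell cannot be told apart.

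Fewer of the 45 genes were called in each fit that left out 1 library. The median log2 fold change of the 45 stayed between 1.81 and 2.35 in these 4 fits. It was lowest without 3d DM replicate 1 and highest without 3d DM replicate 2. Each of these fits takes the lone library of a state to vary like the other state's, and they did not all estimate the spread in the same way. Their numbers of calls therefore do not measure how far a result rests on 1 library. Median-of-ratios rescaling moved all genes by 0.24 towards 3d DM on the log2 scale, and the 45 genes then had a median log2 fold change of 1.84 against -0.01 over all genes, again with 41 called, where 11% of all genes were called higher in GM. The very small adjusted p-values did not hold there. In the limma fits Mcm5 went from 1e-10 to 0.0051 and Myh3 from 5.63e-50 to 0.0021.

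**Figure D1:**
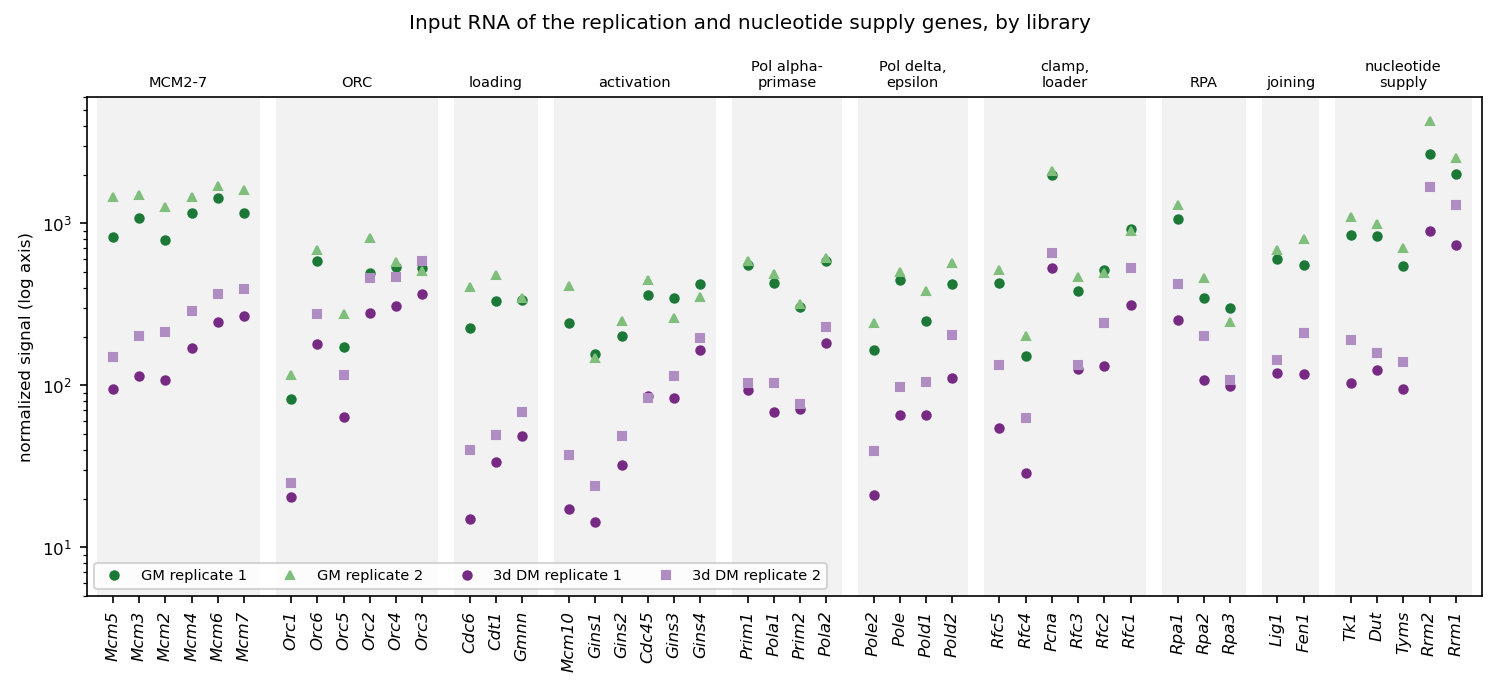
Normalized signal of the 45 genes in the 2 GM and 2 3d DM input libraries, on a log axis, grouped by role, with 1 point for each library. For 44 of the 45 genes both GM points lie above both 3d DM points, and Orc2, Orc3 and Orc4 have the smallest log2 fold changes.

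The 6 subunits of the MCM2-7 helicase, which unwinds DNA ahead of the polymerases, were all called higher in GM, with a median log2 fold change of 2.62. Mcm5 measured 825 and 1461 in GM against 95.1 and 149.7 in 3d DM and had the largest change of the ring (3.19 ± 0.45, adjusted p = 1e-10). Mcm7 measured 1160.4 and 1614 in GM against 268 and 396 in 3d DM and had the smallest (2.07 ± 0.44, adjusted p = 3.66e-05). In neither gene did the states overlap. Mcm3 measured 1073 and 1504 in GM against 115 and 201 in 3d DM (3.06 ± 0.45, adjusted p = 4.02e-10), and Mcm2 measured 788 and 1264 in GM against 108 and 214 in 3d DM (2.71 ± 0.45, adjusted p = 6.29e-08). The other two subunits lay between these and Mcm7. Mcm4 measured 1156 and 1447 in GM against 171 and 289.7 in 3d DM (2.53 ± 0.44, adjusted p = 2.65e-07), and Mcm6 measured 1434 and 1699 in GM against 245 and 366 in 3d DM (2.38 ± 0.44, adjusted p = 1.13e-06). Per kilobase of transcript the mean signal of the 6 subunits in GM ran from 304 for Mcm2 to 538 for Mcm6. In 3d DM it ran from 36.2 for Mcm5 to 112 for Mcm7. Mcm7 has exons that overlap Cops6 and Ap4m1 on the other strand, as 14 of the 45 genes overlap some gene there, among them Cdc45 with Ufd1, Tk1 with Afmid and Fen1 with Tmem258. Whether counting used the strand is not given in the sources used here.

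Of the 6 subunits of the origin recognition complex 3 were called, with a median log2 fold change of 1.07. Orc1, the largest subunit and an ATPase, measured 82.9 and 116 in GM against 20.4 and 25.1 in 3d DM and had the largest change (2.07 ± 0.58, adjusted p = 0.00317). Orc6, the smallest subunit, measured 582 and 687 in GM against 181 and 274 in 3d DM (1.5 ± 0.45, adjusted p = 0.0076). Both were separated between the states. Orc5 measured 173 and 277 in GM against 63.4 and 116 in 3d DM and was called by a small margin (1.34 ± 0.49, adjusted p = 0.0407), and under median-of-ratios rescaling it was 1.11 (adjusted p = 0.0762) and no longer called. Orc2 measured 494 and 808 in GM against 281 and 463 in 3d DM (0.81 ± 0.45, adjusted p = 0.241) and Orc4 538 and 575 in GM against 309 and 465 in 3d DM (0.55 ± 0.45, adjusted p = 0.487). These 2 genes had higher values in GM without reaching the threshold. Orc3 measured 529 and 511 in GM against 368 and 590.1 in 3d DM, and the highest of the 4 values was a 3d DM library. Its log2 fold change was 0.16 ± 0.44 (adjusted p = 0.889), and -0.08 (adjusted p = 0.771) under median-of-ratios rescaling, so that Orc3 had no direction that held under both scalings.

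Loading factors had some of the largest changes of the list. Cdc6, the ATPase that brings the MCM ring to the origin complex, measured 227 and 402 in GM against 15 and 39.8 in 3d DM (3.57 ± 0.52, adjusted p = 4.41e-10). Cdt1, which escorts the ring, measured 329.9 and 481 in GM against 33.5 and 49.7 in 3d DM (3.26 ± 0.50, adjusted p = 2.58e-09). Gmnn encodes geminin, the inhibitor of CDT1, and measured 337 and 345 in GM against 48.8 and 68.1 in 3d DM (2.54 ± 0.49, adjusted p = 4.73e-06). All 3 were called, and the inhibitor was higher in GM together with the factor it binds.

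Of the 6 helicase activators 5 were called, with a median log2 fold change of 2.35. Mcm10, which helps to switch the loaded helicase on, measured 243 and 413 in GM against 17.3 and 37.4 in 3d DM (3.58 ± 0.52, adjusted p = 2.88e-10). This was the largest estimate of the list by a narrow margin, and Cdc6 was above it without GM replicate 1 (3.98 against 3.97) and without 3d DM replicate 2 (4.25 against 4.12). Cdc45, which travels with the active helicase, measured 360.4 and 448 in GM against 86.5 and 83.2 in 3d DM (2.23 ± 0.48, adjusted p = 5.02e-05). The GINS complex has 4 subunits with 1 copy of each, and their estimates ran from 1.09 to 2.97. Gins1 measured 157 and 148 in GM against 14.4 and 23.8 in 3d DM (2.97 ± 0.56, adjusted p = 2.88e-06) and Gins2 measured 201 and 249.9 in GM against 32.3 and 48.9 in 3d DM (2.46 ± 0.52, adjusted p = 3.22e-05). Gins3 measured 348 and 259 in GM against 83.3 and 114 in 3d DM (1.61 ± 0.48, adjusted p = 0.00708). Gins4 measured 422 and 349 in GM against 165 and 195 in 3d DM and was not called (1.09 ± 0.46, adjusted p = 0.0909), although its states did not overlap, and it was called under median-of-ratios rescaling at 0.85 (adjusted p = 0.0313). Differences in change between subunits were not tested.

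**Figure D2:**
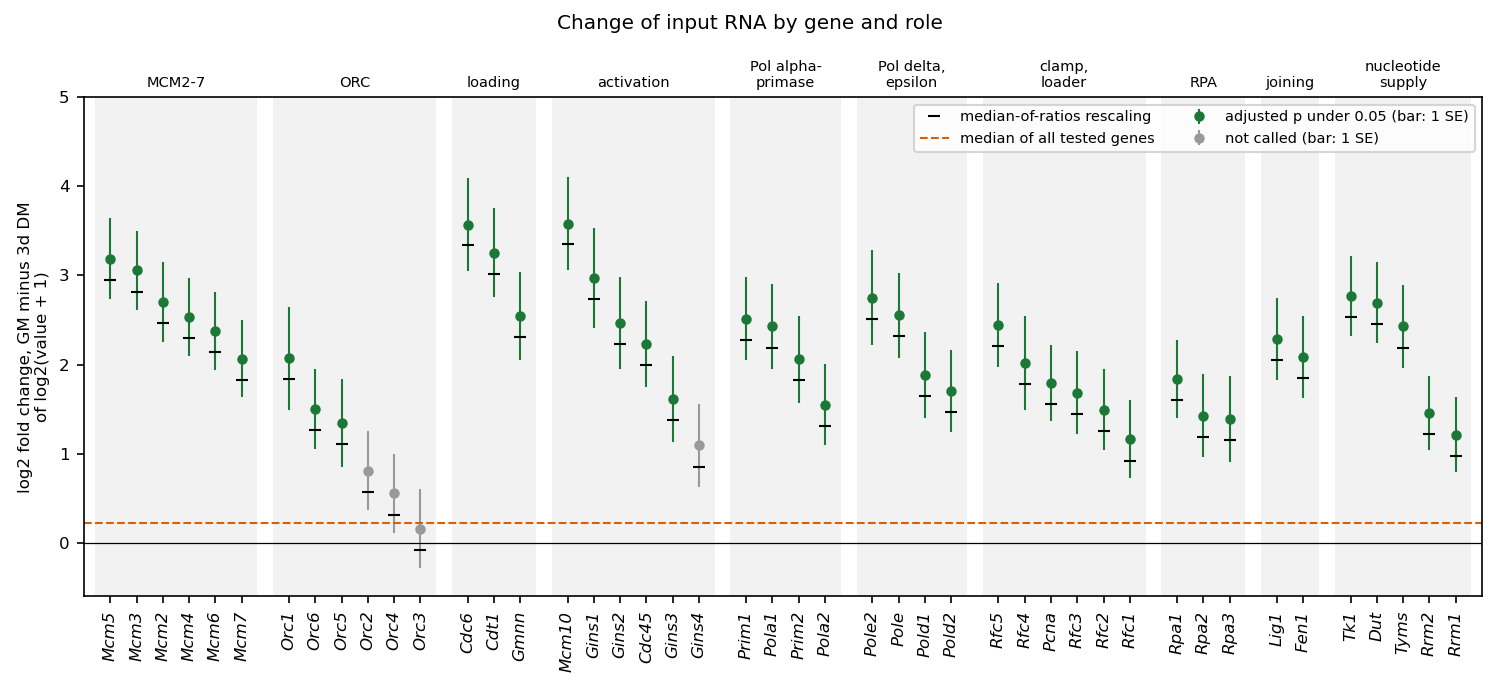
Log2 fold change of each of the 45 genes, GM minus 3d DM, with bars of 1 standard error, grouped by role and ordered within it. The 41 called genes are green and the 4 that were not called (Orc2, Orc3, Orc4 and Gins4) grey, the short black lines give the value after median-of-ratios rescaling, and the dashed line at 0.22 is the median of all tested genes.

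The 8 polymerase genes of the list were all called higher in GM, 4 of 4 for polymerase alpha-primase, which lays down the RNA-DNA primers, and 4 of 4 for polymerases delta and epsilon, which extend them. Prim1, the catalytic primase subunit, measured 549.7 and 582 in GM against 93.2 and 103 in 3d DM (2.52 ± 0.47, adjusted p = 1.69e-06). Prim2, the other primase subunit, measured 305 and 319 in GM against 71.3 and 76.7 in 3d DM (2.06 ± 0.49, adjusted p = 0.000323). Pola1, the catalytic subunit of polymerase alpha, measured 431 and 485 in GM against 68.2 and 104 in 3d DM (2.43 ± 0.48, adjusted p = 6.41e-06), and its partner Pola2 measured 589 and 612 in GM against 183 and 228 in 3d DM and had the smallest change of the group (1.55 ± 0.45, adjusted p = 0.00574). No state overlapped in any of these 4 genes. Pole2, the second subunit of polymerase epsilon, measured 165 and 242 in GM against 21 and 39.5 in 3d DM (2.75 ± 0.53, adjusted p = 5.14e-06) and the catalytic subunit Pole 448 and 501 in GM against 65.5 and 97 in 3d DM (2.55 ± 0.48, adjusted p = 1.76e-06). Pold1, the catalytic subunit of polymerase delta, measured 249 and 383 in GM against 65.7 and 105 in 3d DM (1.89 ± 0.49, adjusted p = 0.00116) and Pold2 426 and 571 in GM against 111 and 204 in 3d DM (1.71 ± 0.46, adjusted p = 0.00234). The epsilon subunits had larger estimates than the delta subunits, by less than the sum of their standard errors for Pole and Pold1.

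Pcna and the 5 RFC genes were all called higher in GM, with a smaller median log2 fold change of 1.74. Pcna encodes the ring that holds the polymerase on DNA and measured 1992 and 2103 in GM against 528 and 658 in 3d DM (1.79 ± 0.43, adjusted p = 0.00034). The annotation names 2 pseudogenes, Pcna-ps1 and Pcna-ps2, and how reads were shared among them is unknown. Rfc5 measured 431 and 514 in GM against 54.9 and 133 in 3d DM and had the largest change of the loader (2.44 ± 0.47, adjusted p = 5.15e-06). Rfc1, the large subunit of the loader, measured 922 and 896 in GM against 312 and 528 in 3d DM and had the smallest (1.16 ± 0.44, adjusted p = 0.0484). The Rfc1 call was lost in 5 of the 10 alternatives that kept all libraries, with adjusted p-values from 0.050 to 0.221, and in each fit that left out a library. The other three are small ATPase subunits of the loader. Rfc2 measured 518 and 495 in GM against 131 and 244 in 3d DM (1.49 ± 0.46, adjusted p = 0.00933). Rfc3 measured 380.4 and 466 in GM against 126 and 134 in 3d DM (1.68 ± 0.47, adjusted p = 0.00319). Rfc4 measured 152 and 203 in GM against 29 and 62.7 in 3d DM (2.02 ± 0.52, adjusted p = 0.00131). The states stayed apart in all 6 genes.

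RPA, the heterotrimer that coats single-stranded DNA, was called for all 3 subunits, with a median log2 fold change of 1.43. Rpa1, the large subunit, measured 1066 and 1292 in GM against 252 and 425 in 3d DM (1.84 ± 0.44, adjusted p = 0.000363). Rpa2 measured 346 and 462 in GM against 108 and 202 in 3d DM (1.43 ± 0.47, adjusted p = 0.0167). Rpa3 measured 301 and 248 in GM against 99.5 and 108 in 3d DM (1.39 ± 0.48, adjusted p = 0.0273). RPA also acts in DNA repair outside S phase. Fen1, the nuclease that trims the flaps of Okazaki fragments, measured 556 and 806 in GM against 117 and 209.8 in 3d DM (2.09 ± 0.46, adjusted p = 7.55e-05), and Lig1, the ligase that seals them, measured 599 and 682 in GM against 119 and 143 in 3d DM (2.29 ± 0.46, adjusted p = 1.25e-05). None of these 5 genes overlapped between the states.

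Enzymes of nucleotide supply were called in 5 of 5 cases, with a median log2 fold change of 2.43. Tk1, the cytosolic thymidine kinase, measured 846 and 1097 in GM against 103 and 191 in 3d DM (2.77 ± 0.45, adjusted p = 3.24e-08). Dut, the dUTP pyrophosphatase that keeps uracil out of DNA, measured 835 and 994 in GM against 124 and 158 in 3d DM (2.69 ± 0.45, adjusted p = 8.6e-08), and Tyms, which makes dTMP, measured 549.6 and 708 in GM against 95 and 139 in 3d DM (2.43 ± 0.46, adjusted p = 3.22e-06). Both subunits of ribonucleotide reductase, which turns ribonucleotides into deoxyribonucleotides, had smaller estimates than these. Rrm2, the small subunit whose protein is destroyed at the end of each cycle, measured 2673 and 4270.0 in GM against 896 and 1687 in 3d DM (1.46 ± 0.42, adjusted p = 0.00428). Rrm1, the large subunit, measured 2011 and 2538 in GM against 733 and 1298 in 3d DM and had the smallest change of the group (1.21 ± 0.42, adjusted p = 0.0274). The 3 enzymes that handle thymidine and uridine nucleotides (Tk1, Tyms and Dut) were at 2.43 to 2.77 and the reductase subunits at 1.21 to 1.46, a difference that was not tested. Values of the states did not overlap in any of the 5.

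Mean levels per kilobase of the principal transcript were highest in GM for Rrm2, Pcna, Tk1 and Rrm1. Rrm2 measured 1219 and 1947 normalized signal per kilobase in the 2 GM libraries and Pcna 1312 and 1386, so these neighbours overlapped. Tk1 followed at 588 and 761.7 and Rrm1 at 503 and 635, again overlapping, and all 4 values of Tk1 and Rrm1 were below those of Rrm2 and Pcna. The lowest was Orc1 at 27.5 and 38.6, followed by Gins2 at 51.4 and 64.1 and Pole at 62.5 and 69.9. Mcm10, at 49.8 and 84.9, overlapped both Gins2 and Pole, and Orc1 lay below all 3. Rrm1 also overlapped Mcm6 at 493 and 584, Mcm7 at 392 and 545, Orc6 at 452 and 534 and Dut at 428 and 510.0. Dut overlapped Orc6 as well, and Tyms was further down at 174 and 224. In 3d DM Rrm2 and Pcna were also the highest, at 409 and 769 for Rrm2 and 348 and 434 for Pcna. The lowest in 3d DM was Mcm10, at 3.56 and 7.69, overlapping Orc1 at 6.77 and 8.31. The transcript taken was the principal one of the GENCODE annotation. One transcript stands for each gene here, so a level per kilobase depends on that choice.

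Promoters were searched for the E2F motif, since the genes moved together. RefSeq promoter sequences (GRCm38, 250 bases before to 50 after the annotated start) were found for 37 of the 45 genes. The motif was taken as TTTCCCGC, TTTCGCGC, TTTGCCGC or TTTGGCGC on either strand, and 2 of these can share bases with each other on opposite strands. A match stood in 14 of the 37 (37.8%), against 2.60% of 27025 genes with a promoter, 5.02% of those tested for expression and 10.3% of those called higher in GM. The share was 34.8% in 23 other replisome and origin-firing genes and 37.5% in 8 genes of chromatin assembly, close to that of the 45. The same 4 words in reversed letter order, used as a control of composition, matched 2.70% of the 37, 4.77% of the tested genes and 5.82% of those called higher in GM. The CCAAT box, searched as CCAAT on either strand, was in 62.2% of the 37, 43.5% of the tested genes and 52.5% of those called higher in GM. It was in 34.8% of the 23 other replisome and origin-firing genes, below the tested genes, and in 75.0% of the 8 genes of chromatin assembly. A match is a run of letters and not a bound site.

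The windows below are shown because they carry the motif in genes that were called and, in Orc3, in a gene that was not, and the capitals mark the 8 matching bases.
Mcm5, chr8:75109345-75109374, plus strand: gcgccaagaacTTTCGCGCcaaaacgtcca
Mcm3, chr1:20820263-20820285, minus strand: acttgggaagtTTTGGCGCcaag
Mcm6, chr1:128359734-128359763, minus strand: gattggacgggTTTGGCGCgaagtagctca
Mcm7, chr5:138171849-138171878, minus strand: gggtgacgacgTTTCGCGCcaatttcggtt
Cdc6, chr11:98908002-98908031, plus strand: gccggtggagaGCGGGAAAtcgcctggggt
Cdt1, chr8:122568036-122568064, plus strand: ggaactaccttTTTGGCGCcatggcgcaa
Gins3, chr8:95633507-95633536, plus strand: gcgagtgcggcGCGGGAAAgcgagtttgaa
Pola1, chrX:93632275-93632304, minus strand: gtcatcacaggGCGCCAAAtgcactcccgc
Pole2, chr12:69228162-69228191, minus strand: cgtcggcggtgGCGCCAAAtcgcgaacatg
Rfc3, chr5:151651200-151651229, minus strand: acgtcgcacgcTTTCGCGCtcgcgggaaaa
Orc3, chr4:34614965-34614994, minus strand: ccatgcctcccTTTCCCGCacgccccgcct

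Several of these genes held more than 1 match. Mcm6 had 3 and Mcm3, Mcm5, Mcm7 and Rfc3 had 2 each, and the other 9 had 1, which makes 20 matches in 14 genes. In Mcm5 and Mcm6 a pair of matches on opposite strands overlapped, starting 4 bases apart. Of the 5 ring genes with a promoter sequence, Mcm2 alone had no match. Mcm4 had no sequence to search. Genes with a match had a median log2 fold change of 2.33 and a range from 0.16 (Orc3) to 3.57 (Cdc6), with 13 of 14 called. The 23 without one had a median of 1.79 and a range from 0.55 (Orc4) to 3.58 (Mcm10), with 21 called. The ranges overlapped almost entirely, and no match says only that these letters were absent from this window.

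**Figure D3:**
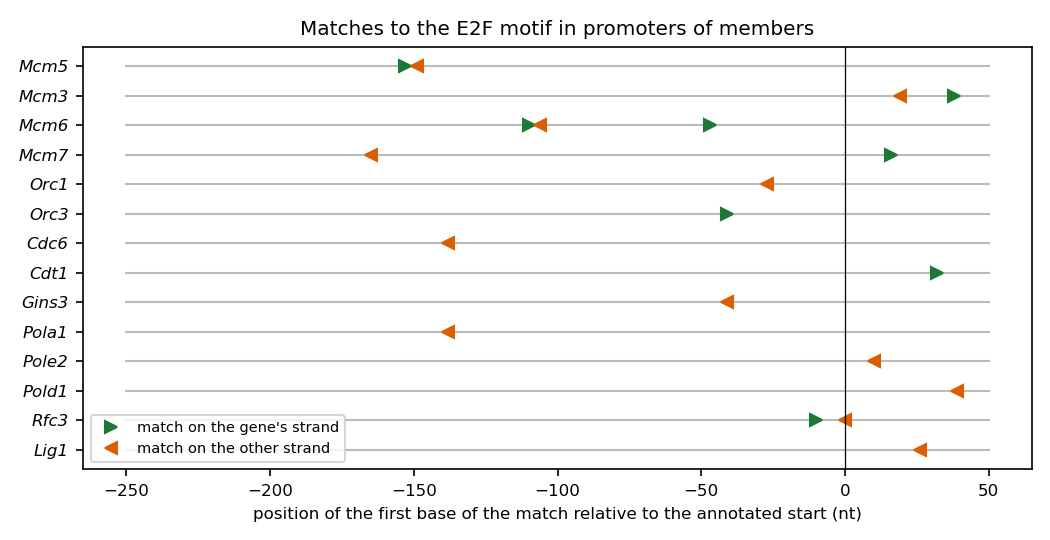
Position of each E2F motif match in the 14 promoters that held one, as the distance in bases of its first base from the annotated start, drawn by strand relative to the gene. The 20 matches lie between 165 bases before and 39 bases after the start.

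Other genes of the pathway were read from 4 related lists. Of 28 other replisome and origin-firing genes, 20 were called higher in GM and 0 lower, with a median log2 fold change of 2.00. Wdhd1, which tethers polymerase alpha to the helicase, had the largest change and measured 338 and 459 in GM against 31.3 and 58.8 in 3d DM (3.17 ± 0.50, adjusted p = 6.96e-09). The 8 genes not called included 3 further polymerase subunits, Pold4, Pole3 (0.75 ± 0.47, adjusted p = 0.318) and Pole4 (0.29 ± 0.46, adjusted p = 0.773). Pold4, the small accessory subunit of polymerase delta, measured 43.1 and 33.1 in GM against 35.4 and 75.3 in 3d DM and was not called (-0.44 ± 0.58, adjusted p = 0.718). Of 8 genes of replication-coupled chromatin assembly, 7 were called higher and 0 lower, with a median of 2.39. Uhrf1, which recruits the maintenance methyltransferase to new DNA, measured 1436 and 1798 in GM against 115 and 211 in 3d DM (3.36 ± 0.44, adjusted p = 2.46e-12), and Asf1a, a histone chaperone, was the one not called, at 342 and 346 in GM against 181 and 289.6 in 3d DM (0.58 ± 0.46, adjusted p = 0.473).

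Of 22 nucleotide enzymes outside the list of 45, 9 were called higher and 0 lower, with a median of 1.12, and 7 were called under median-of-ratios rescaling. Impdh1, of guanine nucleotide synthesis, measured 868 and 857 in GM against 824 and 1325 in 3d DM and was not called (-0.28 ± 0.43, adjusted p = 0.773). Of 9 paralogs that act in mitochondria or in repair, 1 was called and the median was 0.16, below that of all tested genes. That gene, Mcm8, measured 67.1 and 92.3 in GM against 21.9 and 31.9 in 3d DM (1.54 ± 0.58, adjusted p = 0.0471) and was at 1.31 (adjusted p = 0.0519) under median-of-ratios rescaling, where 0 of the 9 were called. Rrm2b, the reductase subunit used outside S phase, measured 236 and 164 in GM against 242 and 319.6 in 3d DM and was not called (-0.50 ± 0.47, adjusted p = 0.569), beside Rrm2 at 1.46 ± 0.42. The difference between these 2 paralogs was not tested.

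**Figure D4:**
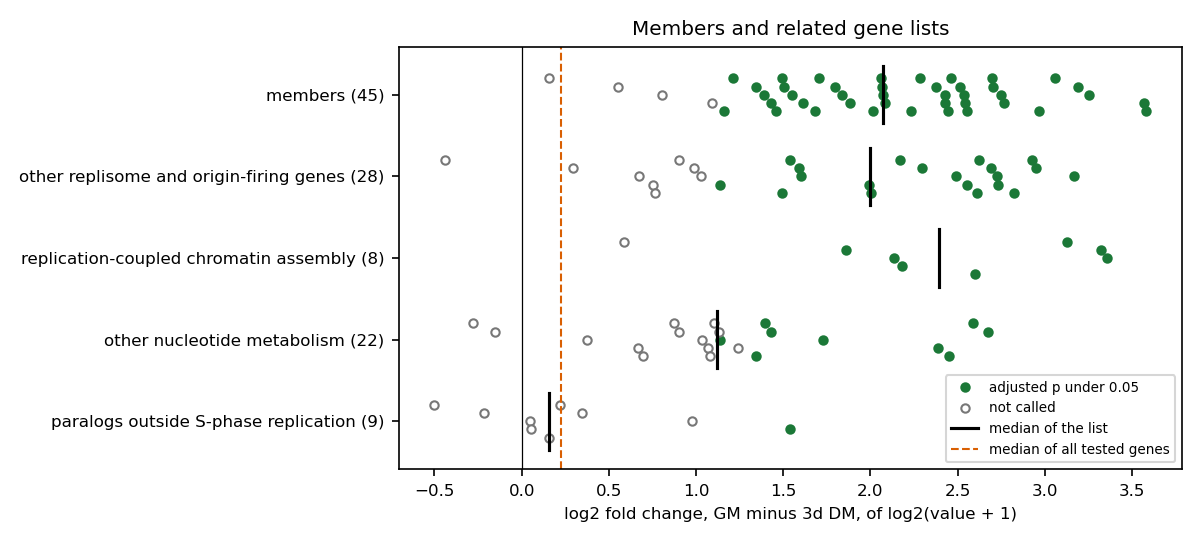
Log2 fold change of the 45 genes and of the tested genes of 4 related lists, GM minus 3d DM, with 1 point for each gene and a bar at the median of each list. The lists of replication genes centre on 2.07, 2.00 and 2.39, the other nucleotide enzymes on 1.12 and the paralogs on 0.16, beside the dashed median of all tested genes at 0.22.

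The m6A peaks were then read for the same genes. A peak is a stretch of a transcript with more immunoprecipitated than input RNA, called by the authors in each library against its own input, and the fold enrichment is that ratio. Peaks stood on 34 and 29 of the 45 genes in the 2 GM lists and on 18 and 13 in the 2 3d DM lists, so the states did not overlap. The mean was 31.5 ± 3.54 (SD, n = 2) in GM and 15.5 ± 3.54 (SD, n = 2) in 3d DM. A two-sided exact permutation test of the libraries gave p = 0.333, the smallest it can give with 2 libraries against 2. Distinct peak regions, after merging lines of a gene that share at least 1 bp, numbered 45 and 35 in GM against 25 and 17 in 3d DM (exact permutation p = 0.333). Over all genes the regions numbered 13273 and 11101 in GM against 13134 and 9376 in 3d DM, so there the states overlapped (exact permutation p = 0.667).

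The states overlapped when all genes were counted. Peaks were on 63.8% and 60.4% of tested genes in GM and on 62.8% and 53.5% in 3d DM, where the 45 genes had 75.6% and 64.4% in GM against 40.0% and 28.9% in 3d DM. The other genes called higher in GM held peaks in 66.7% and 62.0% in GM and in 48.6% and 33.1% in 3d DM. A peak in both GM lists and in neither 3d DM list was found for 8 of the 45 genes (17.8%), against 2.67% of tested genes and 10.1% of the other genes called higher in GM. The opposite pattern was found for 0 of the 45, against 1.74% of tested genes. The input signal of the 45 genes moved with these counts, at a median log2 fold change of 2.07 between GM and 3d DM. The part of signal in the number of peaks was not tested.

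The 8 genes with peaks in both GM lists and neither 3d DM list were Mcm2, Mcm5, Gmnn, Cdc45, Gins2, Mcm10, Prim1 and Tyms. Their median input signal, not divided by length, was 485 in GM and 91.5 in 3d DM. The 11 genes with a peak in all 4 lists (Mcm3, Gins3, Gins4, Pcna, Rfc1, Rfc2, Rfc3, Lig1, Rrm1, Rrm2 and Tk1) had a median of 909 in GM and 180.1 in 3d DM, and a median log2 fold change of 1.61 against 2.53 for the 8. Ranges of the 3d DM signal overlapped, from 27.4 to 161 for the 8 and from 98.6 to 1292 for the 11. The 9 genes without a peak in any list were Orc3, Orc4, Orc5, Prim2, Pold1, Pole2, Rpa2, Rpa3 and Dut. Their median input signal was 316 in GM and 104 in 3d DM. The remaining 17 genes, with peaks in other combinations of lists, had 498 in GM and 157 in 3d DM.

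**Figure D5:**
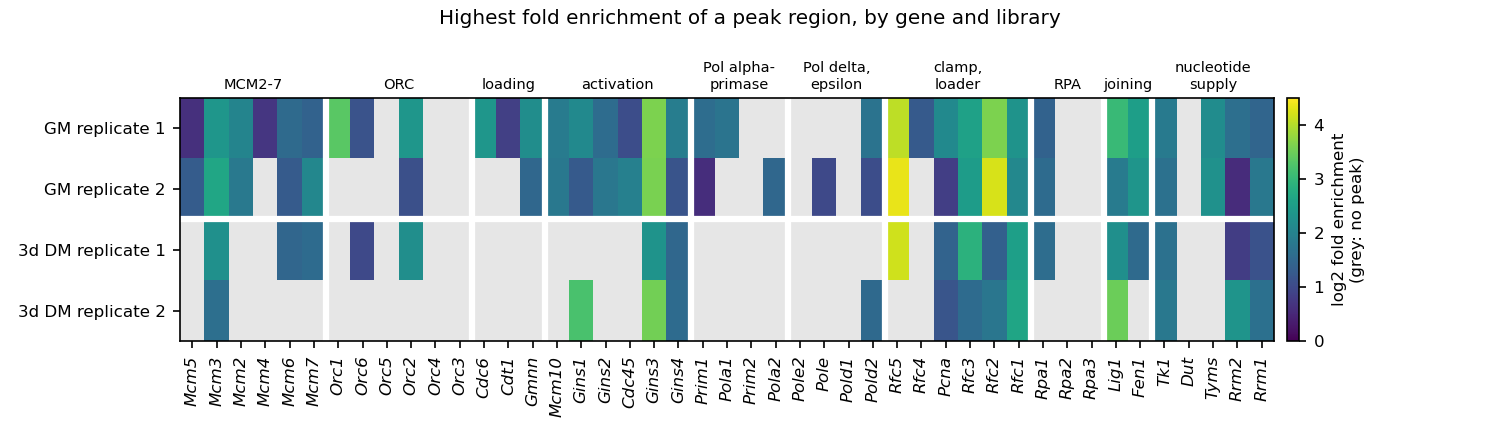
Highest log2 fold enrichment of a peak region on each of the 45 genes in each immunoprecipitated library, grouped by role, with grey where the list holds no peak. Colour is present for 34 and 29 genes in the GM rows and for 18 and 13 in the 3d DM rows, and Rfc5, Rfc2 and Gins3 hold the highest folds.

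The MCM genes differed in the lists that held their peaks. Mcm3 had a region spanning the stop codon, chr1:20802968-20806882, in all 4 lists, with fold enrichments of 5.15 and 6.30 in GM against 4.76 and 3.13 in 3d DM. Mcm5 had a region at chr8:75127304-75127661 with 1.55 and 2.47 in GM and no line in 3d DM, and Mcm2 one in its coding sequence, chr6:88892193-88897294, with 4.08 and 3.54 in GM only. Mcm6 and Mcm7 had 1 region each in both GM lists and 3d DM replicate 1, and Mcm4 had 1 in GM replicate 1 alone. Gmnn had folds of 4.62 and 2.82 at chr13:24752020-24756672, Gins2 3.02 and 3.44 at chr8:120581272-120581692, and Prim1 3.06 and 1.5 at chr10:128029236-128030037, each in GM only. Tyms had 4.55 and 4.85 at chr5:30060826-30061005. Cdc45 and Mcm10 had different regions in the 2 GM lists, so their peaks were shared between replicates by gene and not by position. Counted by position, 7 of 53 regions were in both GM lists and neither 3d DM list, against 3.83% of all 19683 regions, and 0 had the opposite pattern, against 2.70%.

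The highest folds belonged to Rfc5, Gins3, Orc1, Rfc2 and Lig1, ranked by the mean over the lists that held a peak. Rfc5 had a region in its 3' UTR, chr5:117378668-117378846, with 16.6 and 20.3 in GM and 18.0 in 3d DM replicate 1. Rfc2 had one at chr5:134598516-134598785 with 12.2 and 18.8 in GM and none in 3d DM. These 2 regions were mostly repeat sequence, with 94.4% and 84.1% of their bases soft-masked in the genome, and the Tyms region had 81.1%. Such regions, with most bases soft-masked, made up 9.43% of the 53 and 4.05% of regions of all genes. Reads of repeat copies can align at several places, and how these were handled is not given in the sources used here. Gins3 had 6.04 and 12.1 in GM against 4.76 and 11.7 in 3d DM at chr8:95643201-95644610, so the replicates of each state lay further apart than the state means. Orc1 had 10.2 at chr4:108595423-108597147 in GM replicate 1 alone. Lig1 had 8.32 and 3.66 in GM against 4.71 and 11.2 in 3d DM at chr7:13278913-13292188, a merged region in which at most 3 lists covered any 1 base.

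Where a region was called in every list, its fold enrichment was not found to differ between the states. The 45 genes had 13 such regions among 6055, on Mcm3, Gins3, Gins4, Pcna, Rfc1 (3 regions), Rfc2, Rfc3, Lig1, Rrm1, Rrm2 and Tk1. In the limma fit 0 of the 13 and 0 of the 6055 were called (0%), and 1 of the 13 and 222 of the 6055 had an unadjusted p under 0.05. The one region was in the coding sequence of Rfc1, chr5:65293897-65319415, with 3.32 and 2.53 in GM against 4.67 and 6.26 in 3d DM, a log2 difference of -0.90 ± 0.42 (adjusted p = 0.997). In this region, and in that of Lig1, at most 3 lists covered any 1 base, so their 4 folds do not belong to 1 shared stretch. The median log2 difference was 0.11 over the 13 and 0.10 over all, and 8 of the 13 were higher in GM, as were 3620 of the 6055. Gins4 had the difference nearest to 0, with 3.73 and 2.26 in GM against 2.83 and 2.99 in 3d DM at chr8:23227095-23232696. The 4 folds of Tk1 lay close together, with 3.56 and 3.21 in GM against 3.21 and 3.49 in 3d DM at chr11:117815526-117825822, in a gene whose RNA differed by 2.77 ± 0.45. The median standard error of the 13 was 0.39 on the log2 scale, and the adjusted p-values do not show that the folds were equal.

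Regions on the 45 genes were placed along the transcript. By the authors' labels 41.5% of the 53 regions touched both coding sequence and 3' UTR, against 25% of the 19661 regions of all genes that were read from the genome. Coding sequence was touched by 71.7%, against 66.7%, and the 5' UTR by 2 regions, on Lig1 and Tk1. Measured on the principal transcript, the centre of 23 of the 53 lay within 200 nt of the stop codon, 15 lay further upstream and 15 further downstream. The most distant upstream were on Pola1, Rfc1, Lig1 and Mcm2, labelled as coding sequence, with the Lig1 region also touching the 5' UTR. The DRACH motif, the 5-letter context in which m6A is written (D is A, G or T, R is A or G, H is A, C or T), occurred at 22.1 per kilobase in regions of the 45 genes and 22.5 in regions of all genes. The regions of Tyms and 1 of Pold2 held none.

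The windows below give the DRACH word nearest to the centre of the bases covered by most lists, for regions called in all 4 lists (Mcm3, Rfc2, Rfc3, Rrm1, Tk1 and Gins3), for regions in GM alone (Mcm2, Mcm5, Gins2 and Gmnn), and for the repeat region of Rfc5. The capitals mark the word, and the sequences are those of the GRCm38 genome.
Mcm3, chr1:20805290-20805318, minus strand: tggagagtcctaTGACCcttacgacttca
Rfc2, chr5:134598249-134598277, plus strand: aattcaagccctGGACAtggggcatgctg
Rfc3, chr5:151642919-151642947, minus strand: ttcatggaggatGGACTggaaggcatgat
Rrm1, chr7:102468591-102468619, plus strand: acgtgcctgccaGGACAgggagccacgac
Tk1, chr11:117815856-117815884, minus strand: gccattcctaatGGACAatgtaccttgaa
Gins3, chr8:95643482-95643510, plus strand: tgtggttgcccaTGACCctgttggtcttc
Mcm2, chr6:88893077-88893105, minus strand: tgagaatctggaGGACCtcaagggccact
Mcm5, chr8:75127488-75127516, plus strand: ttgagtgtctgaGGACTctctgctctggg
Gins2, chr8:120581502-120581530, minus strand: tcttccacccaaGGACTgcacgccaagca
Gmnn, chr13:24753383-24753411, minus strand: aaaggagaataaAGACTtggcagaagtag
Rfc5, chr5:117378734-117378762, minus strand: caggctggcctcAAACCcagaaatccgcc

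Rfc3, in every list, and Mcm5 and Gins2, in GM alone, showed the word GGACT, which was the central word in 4 of the 50 regions for which a window was taken. Peaks were resolved to stretches of 61 to 1543 exonic bases, so these words are places where m6A could be written and not mapped sites.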

How the data were processed

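Input libraries were read by the authors with HISAT2 2.1.0 against mm10 and scaled with edgeR, and the deposited values are a normalized signal (trimmed-mean scaling) per gene. The values are not whole reads, and the 4 columns sum to between 12534657 and 12536233 with no bearing on depth, so depth is unknown and counting intervals are not given. Peaks were called by the authors with exomePeak in each library, and the deposited lists give a fold enrichment (a ratio) and a p-value per peak. Entrez identifiers were turned into mouse symbols, and the 45 genes and all lists were chosen with earlier results of these data known.

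Genes were kept where at least 2 of the 4 input libraries reached a signal of 25.1, which is 2 CPM of the column total. Log2(signal + 1) was tested with limma 3.58.1 in R 4.3.3, with an intensity trend and the 4 input libraries alone. In the main fit the prior degrees of freedom were infinite, so standard errors followed a gene's level and hardly its own replicates. They were 3.79 (median-of-ratios), 3.83 (trimmed mean) and 5.45 (largest entry removed) after rescaling. With 1 library left out they were infinite without a GM library, but 4.26 without 3d DM replicate 1 and 4.18 without 3d DM replicate 2. Fold changes of low genes are understated by the pseudocount. Peak lines of a gene sharing at least 1 exonic bp were merged into regions, so a region can be a chain of lines. The log2 fold of a region in a library was the median over its lines, and regions in all 4 lists were tested likewise. Fits were tested on simulated data. All members were described, with the largest and smallest change of each role and list, the genes whose call was lost in at least 2 alternatives, those with no peak or with peaks in both libraries of 1 state only, the 5 with the highest mean fold, and the markers named. Repeat content, examples of overlapping genes and some printed sequences were chosen after values were seen. The 1 largest entry of the table has no symbol and took 24.4% to 41.3% of each column. A gene that this rule selects is not reported here.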

Additional observations from a re-analysis of the deposited data

How the results depend on the processing

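Across the 10 alternatives that kept all libraries, between 32 and 42 of the 45 genes were called higher in GM and 0 lower. Over all genes, between 705 (with the replicate block) and 1609 (largest entry removed) were called higher. The median log2 fold change of the 45 lay between 1.84 and 2.09. With stricter filters 38 of the 43 genes and 35 of the 40 genes that still passed were called. Of all genes, 912 of 10769 and 828 of 10211 were called higher there. With no filter it was 39 of 45, and 1176 of 17917 over all genes. Leaving out 1 library gave 2 to 29 called genes and a median of 1.81 to 2.35, in fits that take the lone library of a state to vary like the other state's. Called in every alternative that kept all libraries were 27 of the 45, where a gene removed by a filter counted as not called. Cdc6, Mcm10 and Pole2 were removed by the strictest filter, and Gins1 and Orc1 by both stricter filters. These genes were called in every alternative that kept all libraries and held them. Orc3 turned to -0.082 under median-of-ratios and -0.031 under trimmed-mean rescaling. With 1 library left out Orc3 ran from -0.18 to 0.50, Impdh1 from -0.62 to 0.066 and Pold4 from -0.97 to 0.093, each turning with 1 of the 3d DM libraries. Rescaling moved all genes by 0.24 (median-of-ratios), 0.189 (trimmed mean) or 0.105 (largest entry removed) on the log2 scale, and the cause of these shifts was not tested.

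The replicate numbers are shared by the states, but nothing says that a number marks a batch. Deviations of same-numbered samples from their group means correlated at r = 0.29 across all tested genes and 0.504 across the 45. With the number as a replicate block 32 of the 45 genes were called higher, as were 705 of all 11406 genes tested. The 9 calls lost were Orc5, Orc6, Pola2, Rfc1, Rfc2, Rpa2, Rpa3, Rrm1 and Rrm2, with adjusted p-values from 0.056 to 0.221, which left 1 of 6 ORC, 3 of 4 polymerase alpha-primase, 4 of 6 clamp and loader, 1 of 3 RPA and 3 of 5 nucleotide supply genes called. In that fit the median log2 fold change was 2.07, and 0 of the 13 regions were called, with a median of 0.11.

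The excess of genes with a peak in GM was 16 and became 7.5 when peaks needed a fold of at least 4 (17 and 12 in GM, 8 and 6 in 3d DM). It ran from 13.5 to 18.5 with 1 library left out. For regions the excess of 19 became 9 under that fold and 14 to 24 with 1 library left out. The median log2 difference in fold enrichment was -0.29 over the 2 regions left with a fold of at least 4, -0.0027 with the fold of the line of lowest p-value, -0.0049 after centring each library, and -0.042 to 0.20 with 1 library left out. Depth of the peak lists is unknown, so an absent peak does not show an absent mark.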
